A study of Mus musculus with 21 samples.

Results

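Ash1L occupancy of Pax7 was described from 6 merged regions of chromosome 4, which are all of the regions that the study's own gene annotation of the peaks assigned to Pax7, out of 259 merged regions in the series. Pax7 is ENSMUSG00000028736 and lies at chr4:139737062-139833528 on the minus strand of mm10 (GRCm38), a gene of 96467 bp. The peaks came from 3 Ash1L ChIP-seq replicates of C2C12 cells, an established line of mouse C3H myoblasts, collected at day 1 of differentiation after 24 hours in DMEM with 2% donor horse serum. The chromatin was precipitated with a rabbit antibody against Ash1L, and the design describes the replicates as independent experiments. All 3 belong to 1 group with no altered or untreated arm, so that the values below are a description of that group. All 6 regions lay inside the annotated gene, and none of them was assigned to a second gene. Cell identity could not be read from the lists, which hold peaks and no expression values.

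Pax7 is a paired-box transcription factor that marks satellite cells, the stem cells of adult skeletal muscle, and is needed to maintain them. It is expressed in activated myoblasts and is switched off as they commit to differentiation and fuse. Ash1L is a histone methyltransferase of the Trithorax group that acts on lysine 36 of histone H3, and Trithorax proteins are known to oppose Polycomb repression at developmental genes. Many genes for developmental transcription factors carry long stretches rich in CpG, a cytosine followed by a guanine, which is otherwise scarce in mammalian genomes.

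Sequences were taken from the GRCm38 reference at the places that the results turn on, and each is written 5′ to 3′ on the minus strand, the coding strand of Pax7, with CpG in capitals. The first 3 are 300 bases from the middle of each stretch that all 3 replicate lists held, at chr4:139827770-139828069, chr4:139826796-139827095 and chr4:139824065-139824364, and they are shown because every replicate had a peak there.
Shared stretch A: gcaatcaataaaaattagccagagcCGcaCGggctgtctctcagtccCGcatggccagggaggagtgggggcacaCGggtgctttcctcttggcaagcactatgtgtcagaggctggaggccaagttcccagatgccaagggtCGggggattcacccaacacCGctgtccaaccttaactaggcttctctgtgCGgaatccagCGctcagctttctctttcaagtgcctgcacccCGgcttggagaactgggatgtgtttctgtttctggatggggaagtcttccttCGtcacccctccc
Shared stretch B: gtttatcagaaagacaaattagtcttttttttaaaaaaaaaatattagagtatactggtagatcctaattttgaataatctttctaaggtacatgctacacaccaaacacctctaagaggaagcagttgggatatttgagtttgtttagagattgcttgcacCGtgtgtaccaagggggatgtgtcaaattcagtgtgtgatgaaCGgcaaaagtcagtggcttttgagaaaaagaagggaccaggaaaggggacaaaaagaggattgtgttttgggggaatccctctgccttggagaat
Shared stretch C: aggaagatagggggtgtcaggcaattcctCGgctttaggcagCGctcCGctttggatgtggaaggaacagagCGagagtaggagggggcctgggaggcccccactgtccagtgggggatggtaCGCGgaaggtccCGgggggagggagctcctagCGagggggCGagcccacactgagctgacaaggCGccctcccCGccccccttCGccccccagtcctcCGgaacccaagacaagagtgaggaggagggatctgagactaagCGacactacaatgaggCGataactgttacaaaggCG
The next pair are the shortest gaps between merged regions, in full, at chr4:139830096-139830285 and chr4:139826079-139826247. The first 148 bases of the gap between regions 3 and 4 are coding sequence of exon 2.
Gap between regions 3 and 4: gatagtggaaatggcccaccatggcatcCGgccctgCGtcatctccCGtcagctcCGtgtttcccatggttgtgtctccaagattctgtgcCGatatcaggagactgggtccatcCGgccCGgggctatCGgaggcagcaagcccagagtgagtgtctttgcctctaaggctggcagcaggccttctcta
Gap between regions 4 and 5: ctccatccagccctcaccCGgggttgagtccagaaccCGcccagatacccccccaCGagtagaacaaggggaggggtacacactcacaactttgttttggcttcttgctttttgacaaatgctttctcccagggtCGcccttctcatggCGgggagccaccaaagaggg
The last is the middle of region 6, at chr4:139821747-139822046, the region farthest from the gene start.
Region 6: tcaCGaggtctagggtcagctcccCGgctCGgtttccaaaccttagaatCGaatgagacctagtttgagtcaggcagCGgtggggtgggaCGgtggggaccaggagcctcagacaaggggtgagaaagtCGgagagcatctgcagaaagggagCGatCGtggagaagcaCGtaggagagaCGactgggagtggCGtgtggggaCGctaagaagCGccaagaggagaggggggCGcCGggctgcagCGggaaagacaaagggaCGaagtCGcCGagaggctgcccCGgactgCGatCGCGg
Shared stretch A holds 10 CpG and shared stretch C holds 16, whereas shared stretch B, 300 bases of low GC content (38.3%), holds 2. The 300 bases of region 6 hold 24 CpG, more than any of the shared stretches, although only 1 list called a peak there.

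The 6 regions formed a block at the 5′ end of Pax7. They are numbered here from the gene start, the first base of the longest annotated transcript at position 139833528. The block ran from 519 bp to 11803 bp downstream of that base, a span of 11285 bp, which is 11.7% of the length of the gene. Each edge rested on 1 list. The near edge was at 1327 bp without replicate 3, and the far edge was at 10516 bp without replicate 1. The regions covered 9586 bp, or 84.9% of the span and 9.94% of the gene, and the gaps between them added up to 1699 bp. Beyond the last region, 84663 bp of the gene held no merged region. The distance from the last region to exon 5 was 37042 bp.

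**Figure D1:**
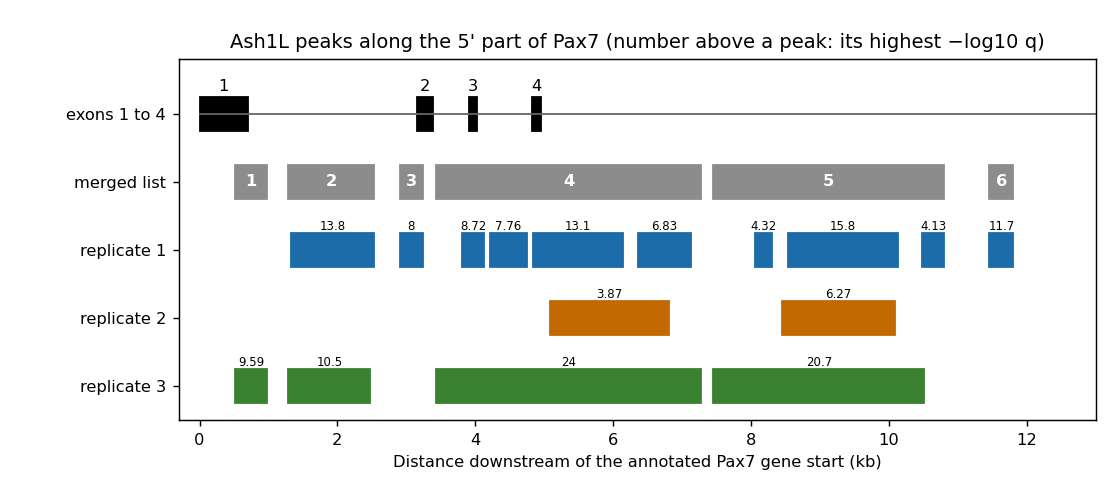
Peaks of the merged list and of the 3 replicate lists (boxes, 1 row each) against distance in kb downstream of the annotated Pax7 gene start, with exons 1 to 4 in the top row and, above each replicate peak, its highest −log10 q. The block runs from 519 bp, set by replicate 3 alone, to 11803 bp, set by replicate 1 alone. Regions 4 and 5 are the only ones with a box in every row.

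Region 1 (chr4:139832547-139833009, 463 bp) lay across the end of exon 1 and the start of intron 1, at 519 to 981 bp from the gene start. Pax7 has more than 1 annotated start. The first base of the longest GENCODE transcript was 519 bp outside the region, whereas that of the shorter one, 521 bp downstream, was inside it. The start of the curated RefSeq transcript, 560 bp downstream, was also inside region 1. The other RefSeq starts lay outside it, at 97 to 521 bp from its edge. The region therefore held the start of Pax7 or lay downstream of it, depending on the transcript that is used. The starts inside it were close to its near edge at 519 bp, and that edge was set by replicate 3, the only list with a peak there.

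Region 2 (chr4:139831002-139832239, 1238 bp) lay wholly in intron 1, and region 3 (chr4:139830286-139830626, 341 bp) took the end of intron 1 and 88 bp of exon 2. Region 4 (chr4:139826248-139830095, 3848 bp) was the widest and the only region to hold whole exons, namely exons 3 and 4 with introns 2, 3 and 4 around them. Exons 2, 3 and 4 encode the paired domain, the DNA-binding domain that gives the Pax family its name. Region 5 (chr4:139822728-139826078, 3351 bp) and region 6 (chr4:139821725-139822069, 345 bp) lay wholly in intron 4.

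Of the 9586 bp in regions, 530 bp were exonic (5.53%) and 9056 bp were intronic (94.5%). Exon 3 (130 bp) and exon 4 (129 bp) were covered in full. Exon 1 was covered over 183 of 702 bp (26.1%) and exon 2 over 88 of 236 bp (37.3%). No region touched exons 5 to 9, which encode, among other parts, the homeodomain, a further DNA-binding domain. Among the introns, intron 3 was covered in full (792 bp), intron 2 over 91.8% of 511 bp and intron 1 over 72.2% of 2453 bp. In the long intron 4 (43893 bp), 6024 bp were covered, or 13.7%, all of them toward exon 4.

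The replicates did not place these exons alike. The 183 bp of exon 1 came from replicate 3 alone, and the 88 bp of exon 2 from replicate 1 alone. Exon 3 was covered in full in replicates 1 and 3, and exon 4 over 122 bp in replicate 1 and 129 bp in replicate 3. Replicate 2 held no base of any Pax7 exon.

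Regions 4 and 5 were among the wider regions of the series, at ranks 25 and 27 of 259 by width, where the median width was 469 bp. Region 2 was at rank 64, and regions 1, 3 and 6 were at ranks 133, 188 and 185. Thus Pax7 held a pair of wide regions, 1 of intermediate width and 3 near or below the median.

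The gaps were short beside the regions. From the gene start, they measured 307 bp, 375 bp, 190 bp, 169 bp and 658 bp. Regions 1 to 5 were thus separated by less than 500 bp each, and the last gap, before region 6, was the widest. When regions up to 500 bp apart were joined, the 6 became 2, one of the first 5 and one of region 6. When those up to 1 kb apart were joined, they became 1.

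The same gaps were not found in each list. The gap of 169 bp between regions 4 and 5 was also the gap between the last peaks of replicate 3, and lay inside a gap of 1639 bp in replicate 2 and one of 920 bp in replicate 1. The gap of 307 bp was set by replicate 3, the only list with a peak in region 1, and the gap of 658 bp by replicate 1, the only list with a peak in region 6. The number of merged regions therefore depended on the lists: it was 9 without replicate 3, whose wide peaks join the narrower ones of replicate 1 in regions 4 and 5, and 4 without replicate 1, which alone held regions 3 and 6.

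Replicate 1 gave Pax7 10 peaks, replicate 2 gave it 2 and replicate 3 gave it 4. A peak is a called region of 1 list. The lists divide some regions into lettered summits with a value each, but give no summit position, so that the place of a summit inside its peak is unknown. The peaks held 20, 4 and 28 summits in replicates 1, 2 and 3 and covered 6973 bp, 3369 bp and 8567 bp, or 72.7%, 35.1% and 89.4% of the merged length. Replicate 1 thus cut the block into many narrow peaks and replicate 3 into a few wide ones.

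The widths showed the same. Replicate 1 peaks ran from 245 bp to 1598 bp with a median of 436 bp. The peaks of replicate 2 measured 1640 bp and 1729 bp. Those of replicate 3 ran from 463 bp to 3848 bp with a median of 2128 bp. In region 4, replicate 1 had 4 peaks with 7 summits where replicate 3 had 1 peak with 11 summits. In region 5, it had 3 peaks with 5 summits where replicate 3 had 1 peak with 11. Replicate 2 had 1 peak with 2 summits in each of them.

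The lists differ in size, which bears on each of these counts. Whole lists held 240, 35 and 228 peaks and 779, 129 and 868 summits in replicates 1, 2 and 3. Pax7 took a similar share of the called length in each, at 2.70%, 2.51% and 2.88%, and 2.57%, 3.10% and 3.23% of the summits. The smaller number of Pax7 peaks in replicate 2 was thus accompanied by a smaller list. The lists give no read counts, and whether the difference in list size reflects depth was not tested.

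Regions 4 and 5 had a peak in all 3 lists, so that 2 of the 6 Pax7 regions did, beside 13.5% of all merged regions (35 of 259). An overlap of 1 bp counted here. With peaks of at least 5 in −log10 q, 1 Pax7 region was left in all 3 lists, and 0 were where each list had to cover at least 50% of the region. The shares of all merged regions under these stricter rules were not computed, so these counts cannot be set against the series. Region 2 had a peak in replicates 1 and 3, so that 3 of 6 were in at least 2 lists, beside 47.5% of all regions. Regions 1, 3 and 6 rested on 1 list each, region 1 on replicate 3 and regions 3 and 6 on replicate 1.

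Counted in bases, 3055 bp of Pax7 (31.9%) were held by all 3 lists, 3213 bp (33.5%) by 2 lists and 3318 bp (34.6%) by 1 list. Over all merged regions of the series, the shares were 37.0%, 32.4% and 30.6%. The shares at Pax7 thus lay within a few percentage points of those of the whole list. No base of Pax7 was held by replicate 2 alone, 1019 bp were held by replicate 1 alone and 2299 bp by replicate 3 alone. Of the bases held by exactly 2 lists, 2899 bp were in replicates 1 and 3 and 314 bp in replicates 2 and 3.

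**Figure D2:**
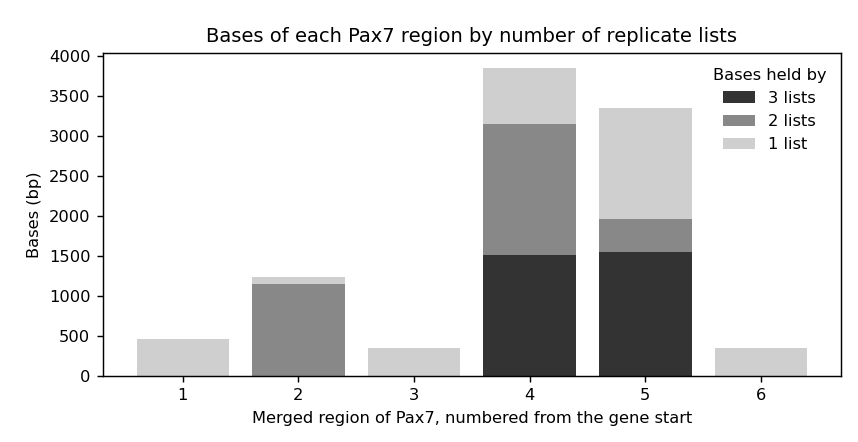
Bases of each Pax7 region (bar height, in bp) divided by the number of replicate lists that held them. Only regions 4 and 5 have bases held by all 3 lists, 1509 bp and 1546 bp, and regions 1, 3 and 6 rest on 1 list.

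The bases shared by all 3 lists formed 3 stretches, whose middles are shown above as shared stretches A, B and C. Stretch A (chr4:139827391-139828450, 1060 bp) began 5078 bp from the gene start. Stretch B (chr4:139826722-139827170, 449 bp) began at 6358 bp. Both lay in intron 4 within region 4 and together made up 39.2% of that region. Stretch C (chr4:139823443-139824988, 1546 bp) began at 8540 bp and made up 46.1% of region 5. All of the shared stretches therefore lay in the first part of intron 4, more than 5 kb downstream of the gene start. Region 2, nearer to the start, agreed closely between replicates 1 and 3 alone, with 1151 of its 1238 bp (93.0%) in both.

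The value of each summit was read as −log10 q, the strength of the evidence that the caller gave for it against the input. In region 1, replicate 3 had summits of 5.22 and 9.59. In region 2, the 6 summits of replicate 1 ran from 6.83 to 13.8 with a median of 9.21, and the 4 summits of replicate 3 from 5.22 to 10.5 with a median of 7.78. Region 2 was the only one in which both lists had a peak and replicate 1 had the higher top value.

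In region 3, the single summit of replicate 1 was at 8.0, and in region 6 it was at 11.7. Region 4 held the highest value at Pax7, 24.0 in replicate 3, where 11 summits ran from 2.43 with a median of 12.6. The 7 summits of replicate 1 in that region ran from 5.92 to 13.1 with a median of 8.0. The summits of replicate 2 there, at 3.52 and 3.87, lay below every summit of replicate 1 and above the lowest of replicate 3.

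Region 5 held the highest values of the other lists, 15.8 in replicate 1 and 6.27 in replicate 2. There the 5 summits of replicate 1 ran from 4.13 with a median of 8.72, and the 11 summits of replicate 3 from 5.22 to 20.7 with a median of 14.4. The lower summit of replicate 2 in region 5 was at 2.94. In regions 4 and 5 alike, the median was thus lowest in replicate 2 and highest in replicate 3, while the summits of replicates 1 and 3 overlapped.

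**Figure D3:**
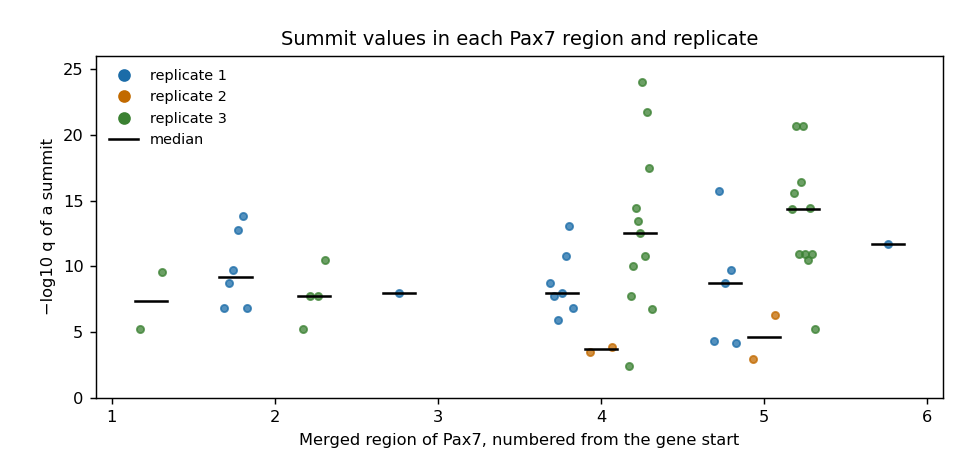
−log10 q of every Pax7 summit (points, coloured by replicate) in each merged region, with the median of each region and replicate as a black line; points are spread sideways for display only. Replicate 3 reaches 24.0 in region 4 and replicate 2 stays at or below 6.27.

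Over the whole gene, the median summit was 8.72 in replicate 1, 3.70 in replicate 2 and 10.9 in replicate 3, with the highest at 15.8, 6.27 and 24.0. Set beside the other peaks of each list, the median Pax7 peak was close in replicate 1 (8.36), lower in replicate 2 (5.07) and higher in replicate 3 (15.6). The strongest Pax7 peak was at rank 76 of 240 in replicate 1, 20 of 35 in replicate 2 and 41 of 228 in replicate 3. The median peak of the whole lists was at 9.01, 9.68 and 8.67, and 4 of 10, 0 of 2 and 4 of 4 Pax7 peaks lay above it. With a stricter threshold of 5, 8, 1 and 4 Pax7 peaks would remain. All 6 regions reached 5 in at least 1 list, as did 84.9% of all merged regions.

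Replicate 3 gave higher values than replicate 1 elsewhere too. Of the 123 merged regions with a peak in both, the top value was higher in replicate 3 in 78 (63.4%), with a median difference of 1.15 in −log10 q (replicate 3 minus replicate 1). At Pax7 it was higher in replicate 3 in 2 of 3 such regions. Replicate 1 cut 26 of the 123 regions (21.1%) into more peaks than replicate 3 did, and regions 4 and 5 of Pax7 were among them. The reverse was seen in 5.

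Many summits shared their value with others, so that neighbouring values are not fine gradations. The value 6.83 was given to 33 summits of the list of replicate 1, 3 of them at Pax7, and 5.22 to 33 summits of that of replicate 3, 3 of them at Pax7. In all, 19 of 20, 1 of 4 and 27 of 28 Pax7 summits had a value also given to a summit of another gene in their list. A difference between a pair of summits within Pax7 carries no error estimate, since the lists hold no replicate of a summit and no read counts.

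Since the authors kept uniquely mapped reads, the uniqueness of the regions and of the gaps was measured. In the regions, 9212 of 9292 stretches of 50 bases (99.1%, 95% Wilson interval 98.9 to 99.3%) occurred once in the genome. In the gaps, all 1454 did (100%, with a lower Wilson bound of 99.7%). Of the 80 stretches found more than once, 77 were in region 4 and 3 in region 2. Neighbouring stretches overlap and are not independent, so the intervals cover counting error only. Repeats took 12.2% of the bases of the regions and 10.4% of those of the gaps. The gaps were thus at least as unique as the regions around them.

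The regions were rich in CpG beside the rest of the gene. They held 376 CpG, or 3.92 per 100 bp, whereas the gene beyond the last region held 1.37 per 100 bp and the stretch of the same length upstream of the gene 1.43. The ratio of observed to expected CpG, which corrects for GC content, was 0.546 in the regions, 0.204 in the gene beyond them and 0.205 upstream. GC content differed less, at 53.9%, 51.8% and 52.8%. The gaps were also rich in CpG, at 3.35 per 100 bp with a ratio of 0.437. The contrast was thus between the whole block and the longer stretches beyond it rather than between regions and gaps. The next stretch of the same length downstream held 1.82 per 100 bp with a ratio of 0.264. The sequence adjoining the block was not all poor in CpG, since the 519 bp between the gene start and region 1 held 6.74 per 100 bp.

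The regions differed among themselves. As a CpG island rule, GC content had to reach 50% and the CpG ratio 0.6. Region 1 (65.9% GC, ratio 0.841), region 2 (55.7%, 0.804) and region 6 (62.9%, 0.864) met it, so that 3 of 6 did, beside 21.1% of the 242 merged regions that lie on assembled chromosomes. Region 3 (54.5%, 0.207), region 4 (53.1%, 0.386) and region 5 (51.4%, 0.557) did not. The regions that met the rule were thus the outer ones of the block, and the wide regions held by all 3 lists had lower ratios.

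Within the wide regions, CpG was uneven. Shared stretch A had a ratio of 0.589 and shared stretch C one of 0.685, at 56.0% and 55.2% GC. Shared stretch B had a ratio of 0.229 and 44.3% GC. All 3 lists therefore held a peak over a stretch poor in CpG as well as over richer ones. Only in replicate 1 did stretch B have a peak apart from that over stretch A. In replicates 2 and 3, the same peak covered both. Without summit positions, where the signal of those peaks was highest is unknown. Among the gaps, the first had the highest ratio (1.02, from 14 CpG in 307 bp), above that of any region. The 519 bp between the gene start and region 1 also met the island rule, with a ratio of 0.634 and 65.5% GC, but held no peak in any list.

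In bins of 500 bp, those with at least 50% of their bases in a region held a median of 15.5 CpG (20 bins, 2 to 54). The other bins of the gene held a median of 6 (173 bins, 0 to 35), and bins upstream a median of 6 (40 bins, 1 to 23). The highest count, 54, was in the bin at 11500 bp from the gene start, which holds most of region 6. The next bin, at 12000 bp, held 30 CpG and no region, so the CpG-rich stretch ran past the end of the block. The lowest counts inside the block, 2 and 4, were at 6000 bp and 6500 bp, around shared stretch B.

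**Figure D4:**
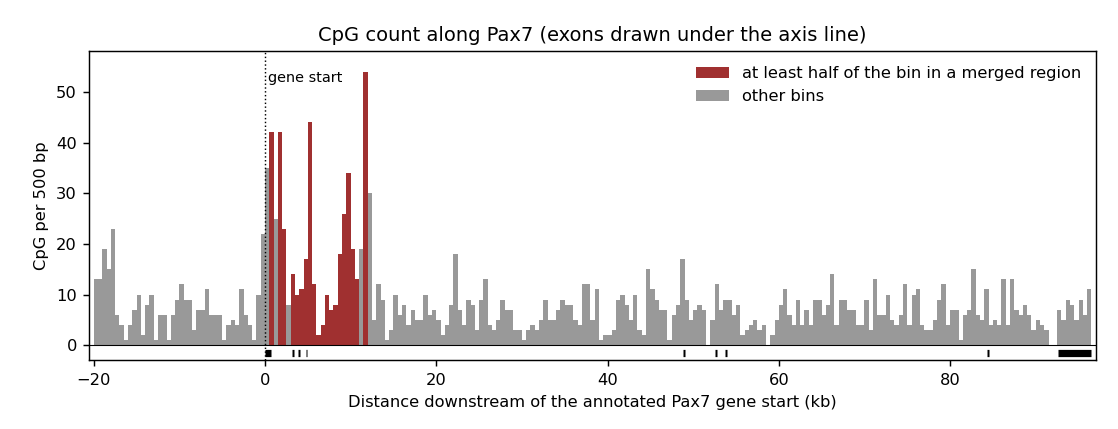
CpG count in bins of 500 bp along Pax7, from 20 kb upstream of the gene start to the gene end, against distance in kb; bins with at least 50% of their bases in a merged region are red and exons are drawn as black boxes under the axis. The red bins reach 54 CpG and have a median of 15.5, and the other bins of the gene have a median of 6.

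Across the series, a merged region on a chromosome had a median GC content of 47.5% and a median CpG ratio of 0.417. The Pax7 regions had medians of 55.1% and 0.681. The middle 50% of all 242 lay between 40.1% and 54.1% GC and between 0.254 and 0.651 in ratio, so that the Pax7 medians, which weigh short and wide regions alike, were above these ranges. The pooled bases of the Pax7 regions (53.9% GC, ratio 0.546) lay inside them, as did the wide regions 4 and 5. Regions of 1 gene share their surroundings, and no test was made on them.

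Pax7 ranked higher by the number of its regions, as the merged list counts them, than by their highest value. The merged list named 146 genes, of which 83 had 1 region and 10 had at least 5. Pax7, with 6, shared rank 3 with 2700069I18Rik, a noncoding antisense gene, after 2010111I01Rik with 11 and Hoxc5 with 8. That rank moved with the processing, to 13 when regions within 500 bp were joined, to 8 without replicate 1 and to 1 without replicate 3. By covered length it was at rank 14, against a median of 1460 bp per gene, and it held 2.87% of all merged bases. By its highest value in any list it was at rank 49 of 146, and the median gene was at 12.7. By the highest value of each list, its rank was 55 of 120 genes in replicate 1, 24 of 42 in replicate 2 and 46 of 122 in replicate 3.

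**Figure D5:**
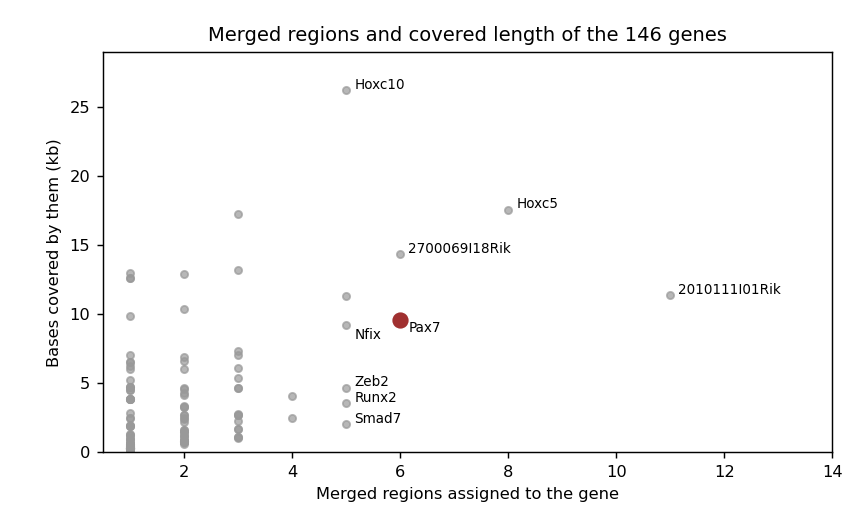
Each point is 1 of 146 genes, placed by its number of merged regions and by the bases that they cover, in kb; the genes with at least 5 regions that the text reports are named. Pax7 (red) has 6 regions over 9586 bp, with fewer bases than Hoxc10, Hoxc5, 2700069I18Rik and 2010111I01Rik.

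The regions of Pax7 were packed more densely than those of most of these genes. They filled 84.9% of their span, with a largest gap of 658 bp. Among the other genes with at least 5 regions that are reported here, this share was 33.0% at 2010111I01Rik, 44.9% at Hoxc5, 70.1% at 2700069I18Rik, 33.1% at Nfix, 57.3% at Zeb2, 69.5% at Runx2 and 38.6% at Smad7. Hoxc10, a homeobox gene of the posterior body axis, was the only one of them with a higher share, at 94.8%, with a largest gap of 820 bp. At Runx2, a regulator of bone formation, the largest gap was 638 bp, close to that of Pax7.

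When regions within 1 kb were joined over the whole series, they formed 151 loci, of which 95 held 1 region. The Pax7 block was then 1 locus of 6 regions, at rank 3 by the number of its regions in a tie of 2 loci and at rank 6 by covered length. The largest locus covered 31478 bp.

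No other gene near Pax7 had a merged region. Its annotated neighbours are Tas1r2, a taste receptor gene 66781 bp beyond its 3′ end, the noncoding gene Gm1667 at 76959 bp upstream and Klhdc7a at 126691 bp upstream, with 0 regions each. On chromosome 4, the nearest other merged regions were at Zfp534, 7841289 bp away, and at Cdkn2c, 30157740 bp away. The block was thus far from any other merged region of its chromosome.

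A list of 51 other genes of satellite cells and of the networks around Pax7 was set beside it. Of these, 7 had a merged region assigned to them (13.7%). When a region within 5 kb of a gene was counted, whatever the study's assignment, Myf5 was added and 8 of 51 genes (15.7%) had one, beside 111 of 22028 protein-coding genes (0.504%). The list was drawn up with results of these data known, and the shares are a description. None of the other 8 Pax genes had an assigned region, among them Pax3, the closest relative of Pax7. Of 4 myogenic regulatory factors, Myf6, which acts in late differentiation, had 1 region of 258 bp, with a peak of 6.64 in replicate 1 only. Neither Myod1 nor Myog, which drive commitment and differentiation, had one.

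Eya1, a transcriptional cofactor that acts upstream of the myogenic factors, had 1 region of 5256 bp, with top values of 45.8, 20.9 and 67.5 in replicates 1, 2 and 3. Its relative Eya4 had 3 regions over 2726 bp, with 8.72 in replicate 1, 16.6 in replicate 3 and no peak in replicate 2. Eya1 was thus above Pax7 (15.8, 6.27 and 24.0) in each list.

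Nfix, which acts in fetal myogenesis, had 5 regions, with 25.5 in replicate 1, 25.1 in replicate 3 and no peak in replicate 2. Of 12 surface and niche genes, Cdon, a cell-surface receptor of myoblasts, had 1 region of 632 bp, with 5.04 in replicate 1 and 3.64 in replicate 3.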

How the data were processed

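Of the 21 samples of the series, the 3 Ash1L ChIP replicates were analysed from their deposited peak lists. The other 18 (RNA-seq, histone and control ChIP) were not analysed here. To make the lists, the authors trimmed reads by quality, aligned the pairs to mm10 (BWA-MEM), dropped duplicates, reads without a unique place and blacklisted regions, and called narrow peaks in each replicate against the input with MACS2 (q under 0.05, slocal of 2000 bp). The value column of the deposited lists has no name and was read as the −log10 q given by the authors' caller. Its lowest value in any list, 1.30 in replicate 2, lies at the caller's threshold. The lowest values of replicates 1 and 3 were higher, at 2.30 and 2.38. Depth is unknown, since the lists hold no counts.

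Rows of 1 region in a list were joined into 1 peak with its highest value, and a region was in a list with an overlap of 1 bp. The study's methods describe merging broad peaks, whereas the deposited merged list equals the narrow regions of the 3 replicate lists merged, so the regions and gaps counted here are those of narrow peaks. Positions were compared with GENCODE M21 and the GRCm38 sequence. CpG ratios were computed as observed over expected, and copies of 50-base and 36-base stretches were counted on both strands, after a check on simulated sequence. Samples were grouped by their labels. With 1 group, no test was run. Genes were named by a rule: Pax7, its neighbours, genes with at least 5 merged regions, and listed satellite cell genes with a region. A few results under this rule are left out. Members and lists were chosen with earlier results of these data known. The alternatives were a value of at least 5, an overlap of 50%, joined regions, other windows and each replicate left out. Python 3.11.15, numpy 2.4.6, pandas 2.3.3, scipy 1.17.1 and pysam 0.24.0 were used.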

Additional observations from a re-analysis of the deposited data

How the results depend on the processing

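Of 55 comparisons of 13 results with an alternative, 52 were planned and 3 were added after seeing the data. In 42, the value stayed within 1.5 times the count, within the spread between replicates or, for unique stretches, within the Wilson interval. The other 13 moved. Whether any result reversed was not assessed. Joining regions gave 2 Pax7 regions at 500 bp and 1 at 1000 bp (added), and moved the rank of Pax7 by regions from 3 to 13 at 500 bp. Of the Pax7 regions in all 3 lists, 1 of 2 was left with peaks of at least 5, and 0 where each list had to cover at least 50% of the region. The share of all merged regions under these rules was not computed. Counting bases held by at least 2 lists gave 6268 bp. In 300 bases at the middle of each peak (added), GC content was 57.0% and the CpG ratio 0.582. Stretches of 36 bases were unique in 98.2% of cases. Leaving out 1 replicate in turn gave 4 to 9 regions, a covered length of 7287 to 9586 bp, a GC content of 53.6 to 54.6%, a CpG ratio of 0.544 to 0.551, a far edge at 10516 to 11803 bp, a near edge at 519 to 1327 bp and a rank by regions of 1 to 8. The far edge of 10516 bp and the rank of 8 came without replicate 1. The near edge of 1327 bp, the 9 regions and the rank of 1 came without replicate 3. Nothing moved without replicate 2. It alone held no base of Pax7, so the number, length, edges and composition of the Pax7 regions could not change without it. Regions in all 3 lists were not counted with a replicate left out. The count rose to 9 because the wide peaks of replicate 3 no longer joined the narrower ones of replicate 1 in regions 4 and 5. Why the lists differ was not tested.

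Summit distances between replicates, a summit inside the region as the rule for sharing, and windows centred on summits were not run, since the lists give no summit positions. No paired analysis was possible because the lists come from 1 group and no result comes from a test. Without read counts, depth and the error of a single value are unknown, and a stretch without a peak is one that was not called, not one shown to lack Ash1L.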
